A study of Mus musculus with 24 samples.

Results

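The 3 arrays of the ventrobasal complex (VB) and the 4 arrays of the dorsal lateral geniculate nucleus (dLGN) from newborn (P0) mice without eyes were compared, 7 of the 24 arrays of the series. They were chosen by their labels, all arrays named embBE and P0, and no measured value entered the choice. The comparison asks which differences between the touch nucleus and the visual nucleus stand when the retina has never reached its target. In embBE (embryonic bilateral enucleation) both eyes were cauterized in utero, and the mice were C57BL/6 wild type. The other groups used here were control (not enucleated) P0 mice, with 3 VB and 2 dLGN arrays, and embBE mice at P4, with 3 arrays of each nucleus. Nuclei were microdissected by hand from vibratome sections, each sample pooled tissue from pups of 1 litter and 1 condition, and the RNA went through 2 rounds of amplification before it was hybridized to an Affymetrix mouse array. The labels carry a pair of numbers, and 35_3, 39_3 and 39_4 occur for both nuclei. The dLGN array 39_2 has no VB partner. It is not stated that the arrays of a group came from separate litters, and the p-values therefore reflect only how far these arrays differ, some of which may be technical.

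The VB holds the relay neurons that carry touch from the face and body to the somatosensory cortex, and the dLGN holds those that carry vision from the retina to the visual cortex. Both are glutamatergic first-order nuclei that arise from the same progenitor field of the dorsal thalamus. Their neurons are told apart by transcription factors, by guidance receptors that set where their axons go in the cortex, and by adhesion and matrix proteins. In the mouse the retinal axons reach the dLGN before birth, so a newborn control dLGN has received retinal input and an embBE dLGN has not.

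The arrays differed in a way that ran with the nucleus. The actin gap, the log2 signal of the 3′ probe set less that of the 5′ one, which widens as the RNA or the amplified product shortens, was 2.43, 2.25 and 2.55 in the VB embBE arrays 35_3, 39_3 and 39_4. It was 4.27, 3.64, 3.07 and 3.89 in the dLGN embBE arrays 39_2, 39_3, 39_4 and 35_3. The 2 nuclei did not overlap in it. In controls it overlapped, at 4.29, 2.20 and 2.98 in VB and 3.25 and 4.05 in dLGN. The SD of all probe sets was 2.35 to 2.37 in VB embBE arrays, and it was lowest, at 2.16 and 2.22, in dLGN embBE arrays 39_3 and 35_3. The part of the gap in each gene's difference cannot be told apart from the nucleus by design alone, so a second fit held the gap of all 24 arrays as a covariate (the gap fit), and a gene that passed without the gap also passed in it unless the text says otherwise.

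**Figure D1:**
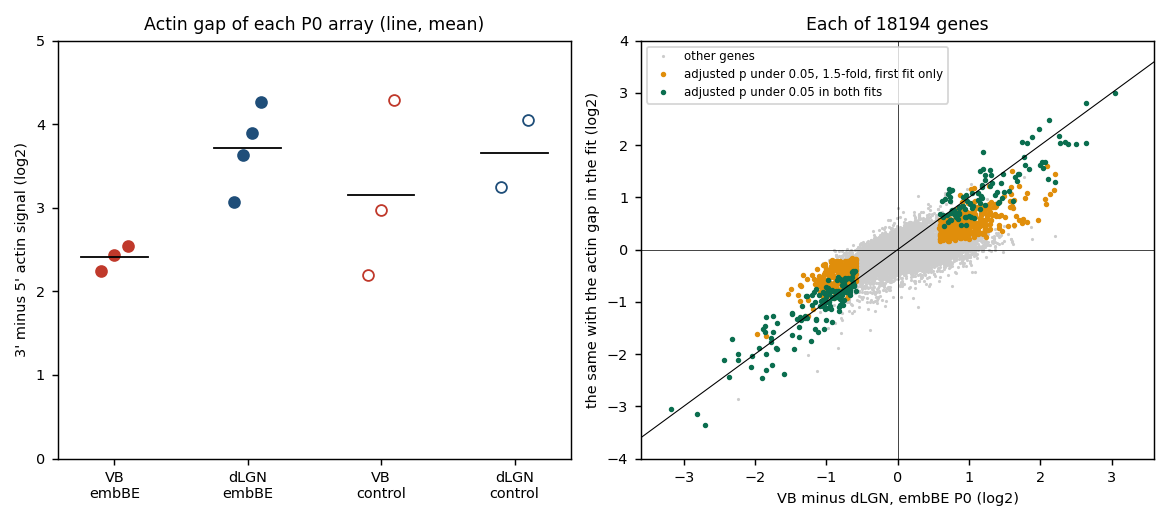
Left, actin gap, 3′ less 5′ signal (log2 units), in each P0 array of VB and dLGN from embBE (filled) and control (open) mice, with the mean as a line: the embBE VB arrays lie at 2.25 to 2.55 and the embBE dLGN arrays at 3.07 to 4.27. Right, VB minus dLGN of each of 18194 genes in embBE at P0 without (x) and with (y) the gap in the fit, both in log2 units, with the line of equality: of 984 genes called without it, 240 were called with it (green) and 744 were not (orange).

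Defining markers of relay neurons were read in all 7 arrays, and their mean log2 signal was 10.04 to 10.21 in VB and 9.66 to 10.44 in dLGN. Tcf7l2, a factor of thalamic neurons, gave log2 signals of 12.70, 12.39 and 12.37 in VB and of 12.65, 12.22, 12.51 and 12.79 in dLGN. Of 9 relay markers 1 was higher (Slc6a4) and 1 lower (Lhx2) in VB. Of 21 markers of the GABAergic nuclei that border both (the reticular and ventral geniculate nuclei and the zona incerta), 0 passed in limma (7 of them did not overlap between the nuclei, as 25.9% of all genes did not), and their mean signal was 5.49 to 5.63 in VB and 5.81 to 6.20 in dLGN. The median VB minus dLGN of that list was -0.35, and its defining marker Gad1, the enzyme that makes GABA, gave 4.41, 4.20 and 5.21 in VB against 6.15, 6.01, 8.26 and 6.93 in dLGN (difference -2.23 ± 0.96, adjusted p = 0.128). The part of those cells in the dLGN values was not tested. Of markers of choroid plexus, meninges, red blood cells, microglia and pretectum, 0 passed in limma. Yet 0 of 11 pretectum and 0 of 10 choroid plexus markers differed by more than 0 (medians -0.17 and -0.13, and 0.02 and 0.10 in the gap fit). For meninges, red blood cells and microglia 6 of 12, 2 of 4 and 4 of 11 did. The mean signal of the pretectum list was 5.48 to 5.70 in VB and 5.72 to 6.13 in dLGN. Of 8 hippocampus and cortex markers Neurod6 was lower in VB, and of 14 vessel markers Pdgfrb was lower, neither in the gap fit. In whole tissue, fewer cells of a type and less RNA per cell cannot be told apart.

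Between VB and dLGN without eyes, 1532 of 18194 genes (8.42%) passed an adjusted p of 0.05 in limma, 714 higher and 818 lower in VB. Of these 984 (5.41%) differed at least 1.5-fold, 551 (3.03%) higher and 433 (2.38%) lower in VB. At the study's own threshold, 1.5-fold with an unadjusted p under 0.05, the count was 2152 (11.8%), with 1587 (8.72%) higher and 565 (3.11%) lower. That split depended on the scaling, with 1255 higher and 790 lower after cyclic loess and 238 higher and 363 lower in the gap fit. With the gap in the fit, 351 genes (1.93%) passed the adjusted threshold, 129 higher and 222 lower in VB. With the 3 label pairs as a block 196 passed, 113 higher and 83 lower. The count also rested on single arrays. It was 528, 518 and 587 without VB 35_3, 39_3 or 39_4, and 820, 940, 663 and 4635 without dLGN 35_3, 39_2, 39_3 or 39_4. Of the 15 largest decreases and the 15 largest increases whose 7 arrays did not overlap, a choice that in part fixes how they stand up to leaving out 1 array, 15 and 14 passed without each array in turn. In the gap fit 14 and 11 passed.

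Values below are log2 signals of single arrays, in the order 35_3, 39_3 and 39_4 for VB and 39_2, 39_3, 39_4 and 35_3 for dLGN, and a difference is VB minus dLGN in log2 units ± SE with its adjusted p from limma. Counts of list members are to be read against 3.92% of all genes higher and 4.5% lower in VB, 8.42% in all. In the gap fit 1.93% of all genes passed. The median of all probe sets was 6.12 to 6.13 in the VB and 6.11 to 6.29 in the dLGN arrays. Some signals lay below it, among them Lhx2 and Wif1 in VB, Car3 and Etv5 in dLGN and Fgf15 in both. Without detection calls it is not known whether such signals were above background.

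The 3 largest increases in VB were those of Car3, Vsnl1 and Plxna2. Plxna2, a plexin receptor for semaphorins, gave 10.26, 10.22 and 10.63 in VB against 7.73, 7.39, 7.58 and 8.23 in dLGN. That is a 6.21-fold difference with the smallest adjusted p of the increases named here (2.64 ± 0.18, adjusted p = 1.75e-08), and every VB array lay about 2 log2 units or more above every dLGN array. Car3, a cytosolic carbonic anhydrase, gave 8.03, 8.50 and 8.13 in VB against 5.45, 4.85, 5.01 and 5.39 in dLGN (3.05 ± 0.26, adjusted p = 4.31e-07). Vsnl1 (visinin-like 1), a neuronal calcium sensor, gave 12.63, 11.93 and 12.14 in VB against 9.58, 8.23, 10.31 and 10.23 in dLGN (2.64 ± 0.39, adjusted p = 0.000273). Its dLGN arrays spread over 2 log2 units, with 39_3 the lowest, and still stayed below the VB. Ppm1j, a protein phosphatase, and Ppp1r17, an inhibitor of protein phosphatases, were higher by 2.39 ± 0.27 and 2.12 ± 0.27, and Nexn, an actin-binding protein, by 2.27 ± 0.28. Fut8, the enzyme that adds the core fucose to N-glycans, was higher by 2.21 ± 0.38 (adjusted p = 0.0012). Of the 15 largest increases, Edil3, Elmod1, Pde1c and Pdzrn3 did not pass in the gap fit (adjusted p = 0.188, 0.0676, 0.0808 and 0.365), and Pdzrn3 did not pass without VB 35_3, VB 39_4 or dLGN 39_3 (adjusted p up to 0.087).

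The 3 largest decreases in VB were those of Neurog2, Aqp4 and Hs6st2. Neurog2, a basic helix-loop-helix factor that drives neurogenesis, gave 5.92, 5.59 and 6.44 in VB against 9.44, 9.61, 8.95 and 8.66 in dLGN (-3.18 ± 0.20, adjusted p = 1.64e-08), the largest difference among the 18194 genes in either direction. Its VB signal lay about at the median of all probe sets in those arrays, 6.12 to 6.13, and without detection calls no fold is given. Hs6st2, which adds 6-O-sulfate to heparan sulfate, gave 9.49, 9.84 and 9.28 in VB against 12.71, 12.02, 12.70 and 11.54 in dLGN (-2.71 ± 0.34, adjusted p = 4.15e-05). Fgd5, an exchange factor for the GTPase Cdc42, gave 8.06, 8.16 and 7.75 in VB against 10.48, 10.25, 10.05 and 10.14 in dLGN (-2.24 ± 0.16, adjusted p = 3.4e-08). In none of these did the nuclei come within 1.5 log2 units of each other. Rasgrf1, a calcium-dependent exchange factor for Ras, was lower in VB by 2.43 on the log2 scale (SE 0.28), with 8.53, 7.51 and 7.33 in VB against 10.36, 10.36, 9.89 and 10.27 in dLGN. The membrane proteins Fam163a (-2.37 ± 0.22) and Tmem132d (-2.04 ± 0.17) and the sorting receptor Sorcs1 (-2.05 ± 0.29) followed the same pattern. Dbp, a clock output factor, gave 6.77, 7.08 and 6.96 in VB against 9.19, 9.49, 8.31 and 8.32 in dLGN (-1.89 ± 0.23, adjusted p = 3.82e-05). Of the 15, only the lipid kinase gene Dgkk did not pass in the gap fit (-1.97 ± 0.38, adjusted p = 0.00375, and 0.0611 in the gap fit).

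**Figure D2:**
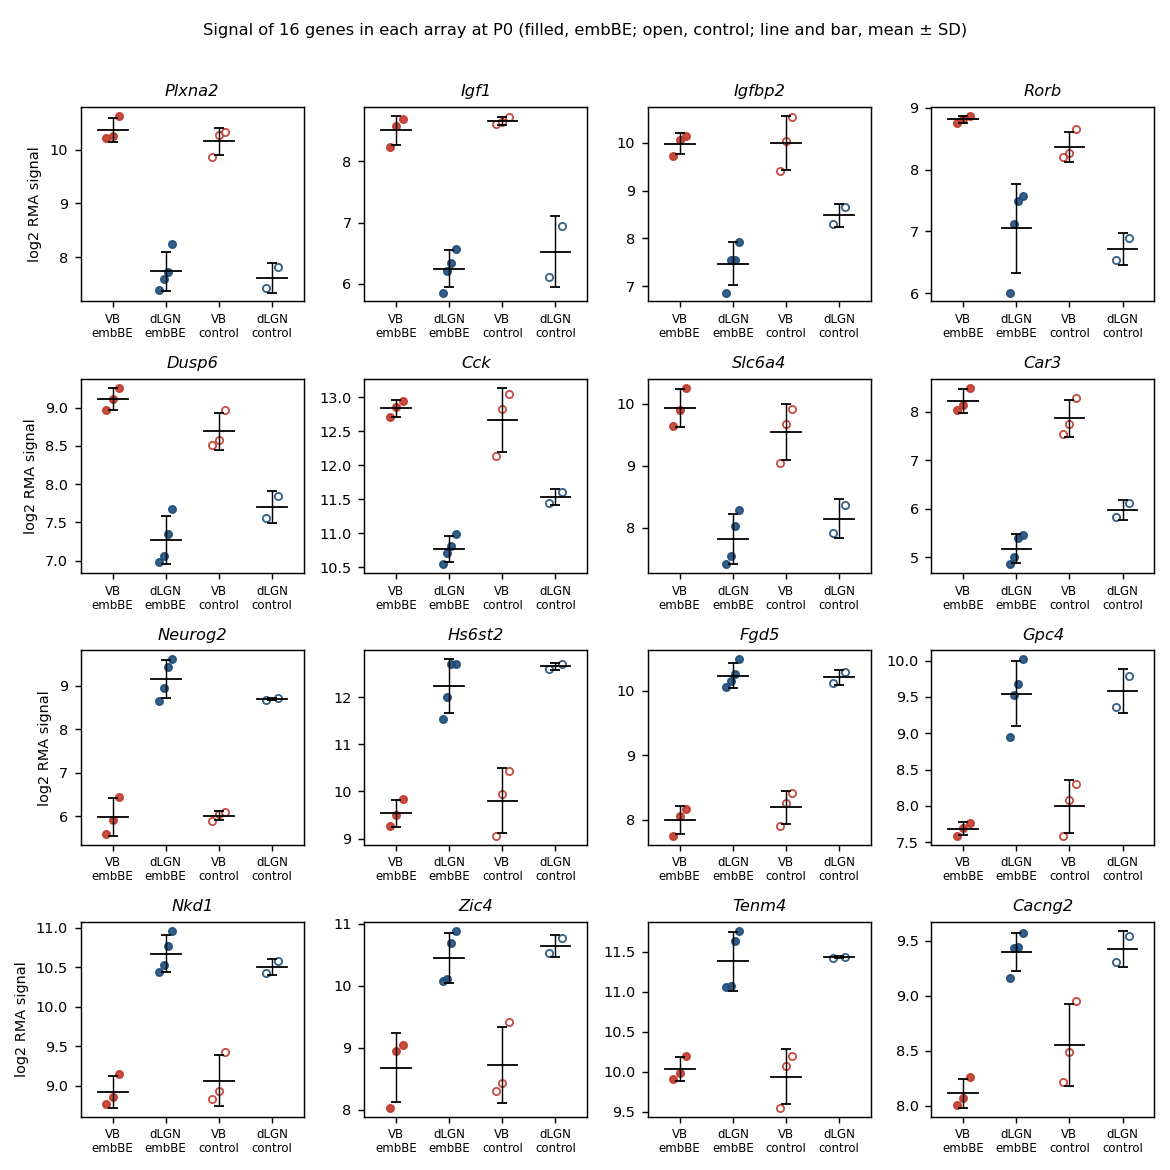
Log2 RMA signal of 16 genes in each P0 array of VB and dLGN, embBE filled and control open, with the mean as a line and the SD as a bar. The embBE nuclei are apart in all 16, by which most were chosen, for example Plxna2 at 10.22 to 10.63 in VB and 7.39 to 8.23 in dLGN.

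Among transcription factors of thalamic nuclei, 9 of 33 passed, 3 higher and 6 lower in VB, against 3.92% of all genes higher and 4.5% lower. In the gap fit 2 were higher and 2 lower. Rorb, a nuclear receptor that in mouse thalamus and cortex marks sensory territories, gave 8.76, 8.83 and 8.87 in VB against 7.12, 6.01, 7.49 and 7.58 in dLGN (1.77 ± 0.28, adjusted p = 0.000578). The 3 VB arrays agreed closely, and dLGN 39_3 was the lowest. Nr2f2 (COUP-TFII), another nuclear receptor, gave 9.11, 9.18 and 9.86 in VB against 8.11, 7.92, 8.35 and 8.64 in dLGN (1.13 ± 0.22, adjusted p = 0.00381). Zic4, a zinc finger factor, gave 9.04, 8.95 and 8.03 in VB against 10.88, 10.12, 10.68 and 10.08 in dLGN (-1.77 ± 0.31, adjusted p = 0.00172). Lhx2, a LIM homeodomain factor of the thalamus, gave 4.48, 4.99 and 3.88 in VB against 6.73, 5.55, 6.99 and 6.31 in dLGN (-1.95 ± 0.29, adjusted p = 0.000265). These 4 passed in the gap fit and without each array in turn. Pou2f2 and Ebf1 were lower by 1.04 and 1.53 on the log2 scale in VB but not in the gap fit (adjusted p = 0.262 and 0.297). Nr2f1, Lhx9 and Zic1 also passed only without the gap (adjusted p = 0.219, 0.179 and 0.287 in the gap fit). Pou2f2 lost the call without any 1 VB array or dLGN 39_3 (adjusted p up to 0.0704) and Ebf1 without VB 39_3 (0.122). Gbx2, which thalamic neurons use to differentiate, had a difference of -0.04 ± 0.61, whose sign turned after cyclic loess, with 8.11, 7.82 and 7.87 in VB against 8.18, 6.51, 9.05 and 8.17 in dLGN. Sox14, a marker of local GABAergic neurons, differed by -0.14 ± 0.13 and did not pass, and its sign turned in the gap fit (0.10).

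Growth factor signalling was the list with the largest share of members that passed. Of 20 measured genes of IGF, neurotrophin and GDNF signalling, 7 were higher and 1 lower in VB, and 5 and 1 in the gap fit. The list's median difference was 0.06, beside -0.06 over all genes, so the counts came from these 8 and not from a shift of the rest. Igf1, a secreted growth factor, gave 8.69, 8.58 and 8.24 in VB against 6.58, 5.86, 6.22 and 6.34 in dLGN (2.26 ± 0.21, adjusted p = 1.46e-06). Igfbp2, a secreted protein that binds IGFs, gave 9.73, 10.06 and 10.14 in VB against 7.54, 6.87, 7.94 and 7.56 in dLGN (2.50 ± 0.25, adjusted p = 3.85e-06). Ligand and binding protein were thus both higher in every VB array. The binding proteins Igfbp3 (1.81 ± 0.40) and Igfbp5 (1.31 ± 0.32) passed here but not in the gap fit (adjusted p = 0.192 and 0.238). Bdnf, a neurotrophin, gave 7.97, 7.99 and 7.53 in VB against 6.97, 6.77, 6.72 and 7.15 in dLGN (0.92 ± 0.13, adjusted p = 0.000263). The 2 GDNF-family co-receptors went opposite ways. Gfra2, which binds neurturin, gave 10.37, 10.55 and 10.44 in VB against 8.59, 8.42, 8.23 and 8.66 in dLGN (1.98 ± 0.27, adjusted p = 0.000139). Gfra1, which binds GDNF, gave 6.34, 6.70 and 6.72 in VB against 8.28, 7.65, 9.08 and 7.72 in dLGN (-1.60 ± 0.36, adjusted p = 0.011, and 0.0638 without VB 35_3).

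Of 28 measured genes of FGF signalling and of the feedback on its ERK kinase cascade, 5 were higher and 1 lower in VB, 3 and 1 in the gap fit, and the median was 0.05. Dusp6, a phosphatase that dampens ERK, gave 9.11, 9.26 and 8.97 in VB against 6.99, 7.06, 7.68 and 7.36 in dLGN (1.84 ± 0.18, adjusted p = 2.92e-06). Etv5, an ETS factor induced by FGF, gave 6.49, 6.70 and 6.90 in VB against 5.48, 4.70, 5.71 and 4.91 in dLGN (1.5 ± 0.23, adjusted p = 0.000417). Spred2, another inhibitor of the cascade, was higher by 0.91 ± 0.20 (adjusted p = 0.00785, and 0.115 in the gap fit), with dLGN 39_3 about 1 log2 unit below the other dLGN arrays. The ligand Fgf9 was higher by 0.73 ± 0.18 (adjusted p = 0.0163, and 0.083 at most without VB 35_3 or 39_3). The intracellular Fgf12 was higher by 0.76 ± 0.19 (adjusted p = 0.0214, and 0.271 in the gap fit). Fgf15, a ligand of the early diencephalon, was the 1 member lower in VB, with 5.17, 5.11 and 4.95 in VB against 5.62, 5.36, 5.63 and 5.61 in dLGN (-0.48 ± 0.15, adjusted p = 0.0497). Its call was lost after cyclic loess (adjusted p = 0.249) and without 6 of the 7 arrays. Dusp6, Etv5, Fgf9 and Fgf15 passed in the gap fit.

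Of 23 measured neuropeptide precursors, 3 were higher and 1 lower in VB (17.4%, against 8.42% of all genes). Cck, the precursor of cholecystokinin, gave 12.71, 12.85 and 12.95 in VB against 11.00, 10.82, 10.72 and 10.55 in dLGN, a 4.19-fold difference (2.07 ± 0.20, adjusted p = 2.19e-06). Gal, the precursor of galanin, gave 9.34, 9.70 and 9.03 in VB against 8.81, 8.38, 8.28 and 8.19 in dLGN (0.94 ± 0.17, adjusted p = 0.00208). Scg2 (secretogranin II) gave 12.22, 11.93 and 12.26 in VB against 9.98, 9.93, 11.63 and 10.83 in dLGN (1.55 ± 0.43, adjusted p = 0.0319, and 0.572 in the gap fit). Vgf, another precursor of the regulated secretory pathway, was lower by 0.76 on the log2 scale in VB (adjusted p = 0.01, and 0.174 in the gap fit). Cck and Gal passed in the gap fit and without each array in turn, and Scg2 passed without only 1 of the 7 arrays.

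The promoters of the 3 precursors that were higher are shown because peptide genes are textbook targets of CREB, the factor that calcium and cyclic AMP activate at the cyclic AMP response element. Each covers 250 bases before and 50 after the start site in RefSeq (GRCm38.p6, minus strand for all 3), written 5′ to 3′, and capitals mark the half-site TGACG or its reverse complement CGTCA.
Cck (chr9:121495645-121495944): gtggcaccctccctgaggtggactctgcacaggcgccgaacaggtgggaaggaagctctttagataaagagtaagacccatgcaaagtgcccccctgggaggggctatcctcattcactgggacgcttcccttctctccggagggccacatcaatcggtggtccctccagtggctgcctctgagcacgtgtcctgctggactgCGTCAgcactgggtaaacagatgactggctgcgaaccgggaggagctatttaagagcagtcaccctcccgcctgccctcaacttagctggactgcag
Gal (chr19:3414495-3414794): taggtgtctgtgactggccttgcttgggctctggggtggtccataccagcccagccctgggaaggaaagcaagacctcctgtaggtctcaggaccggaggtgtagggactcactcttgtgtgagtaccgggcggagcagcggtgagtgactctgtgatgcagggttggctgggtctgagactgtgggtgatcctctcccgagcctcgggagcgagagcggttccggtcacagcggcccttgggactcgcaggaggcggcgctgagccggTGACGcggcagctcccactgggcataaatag
Scg2 (chr1:79439977-79440276): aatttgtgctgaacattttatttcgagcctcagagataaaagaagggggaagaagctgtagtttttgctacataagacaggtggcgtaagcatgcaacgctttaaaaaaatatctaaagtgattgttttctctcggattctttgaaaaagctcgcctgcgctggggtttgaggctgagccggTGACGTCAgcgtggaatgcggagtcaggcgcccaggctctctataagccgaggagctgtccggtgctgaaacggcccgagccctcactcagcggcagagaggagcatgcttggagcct
In Scg2 the 2 half-sites overlap into the full element TGACGTCA, which starts at base -68 from the start site. In Cck the half-site starts at -47 on the opposite strand, and in Gal at base 20 after the start. On either strand the half-site occurs in 20.8% and the full element in 1.79% of the 32851 RefSeq promoters of this length, and the half-site in 11 of the 18 measured peptide precursors with a listed promoter. A match describes these letters only and is neither a bound site nor a cause of the signal.

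Of 16 measured genes of serotonin uptake, storage and receptors 2 were higher and 0 lower in VB (12.5%, against 8.42% of all genes). Slc6a4, the serotonin transporter that thalamic relay axons express only early in life, gave 9.64, 9.90 and 10.26 in VB against 7.41, 7.55, 8.29 and 8.03 in dLGN (2.11 ± 0.32, adjusted p = 0.00031, and 0.00163 in the gap fit). Maoa, which degrades serotonin, was higher by 0.49 ± 0.13 (adjusted p = 0.0306, and 0.324 in the gap fit). In the gap fit the receptors Htr4 and Htr7, which did not pass without the gap (-0.38 each), were lower in VB (adjusted p = 0.0497 and 0.0233).

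Of 50 semaphorin, Slit and netrin genes 3 were higher and 4 lower in VB (14%, against 8.42% of all genes), and 2 and 0 in the gap fit. Plxna2, described above, had the largest difference of the list. Sema3e, a secreted semaphorin, gave 9.0, 8.36 and 8.88 in VB against 6.83, 6.63, 7.88 and 7.66 in dLGN (1.49 ± 0.31, adjusted p = 0.0054, and 0.112 in the gap fit). Unc5c, a netrin receptor, was lower by 0.66 on the log2 scale in VB (adjusted p = 0.0027, and 0.0585 in the gap fit). Of 21 ephrins and Eph receptors 0 were higher and 2 lower in VB (9.52%, near the 8.42% of all genes). The 2 were the ligands Efna2 (-0.83 ± 0.15, adjusted p = 0.00162) and Efnb2 (-0.69 ± 0.15, adjusted p = 0.00799). In the gap fit Efna2 passed (adjusted p = 0.031) and Efnb2 did not (0.169). Of 28 cadherins and protocadherins 6 were higher and 3 lower (32.1%), and 2 and 0 in the gap fit. Pcdh17, a nonclustered protocadherin, gave 10.05, 10.26 and 9.59 in VB against 8.32, 6.31, 7.85 and 8.04 in dLGN (2.34 ± 0.38, adjusted p = 0.000718). Pcdh11x gave 10.19, 10.27 and 10.11 in VB against 9.09, 7.98, 9.32 and 9.11 in dLGN (1.32 ± 0.24, adjusted p = 0.00226). These 2 passed in the gap fit, and Cdh13 (1.70 ± 0.31) and Cdh6 (1.12 ± 0.27) did not (adjusted p = 0.059 and 0.225).

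Teneurins are transmembrane proteins that pair across synapses and help to map retinal axons in the mouse. Tenm2, Tenm3 and Tenm4 passed and were lower in VB, and Tenm1, also listed, was not among the genes that passed. Tenm4 gave 9.99, 10.20 and 9.91 in VB against 11.76, 11.06, 11.64 and 11.07 in dLGN (-1.35 ± 0.18, adjusted p = 7.87e-05). Tenm2 gave 12.76, 13.06 and 12.74 in VB against 13.96, 13.71, 13.90 and 13.67 in dLGN (-0.96 ± 0.16, adjusted p = 0.000992), and Tenm3 gave 11.57, 11.49 and 11.80 against 12.63, 12.40, 12.50 and 12.19 (-0.81 ± 0.15, adjusted p = 0.00236). All 3 passed in the gap fit. Lrrtm4, a postsynaptic leucine-rich repeat protein, went the other way by 1.61 ± 0.37 (adjusted p = 0.0106, and 0.0839 in the gap fit). Of the 38 synaptic organizers 4 were higher and 6 lower (26.3%), and 0 and 5 in the gap fit.

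Of the heparan sulfate genes in the matrix list, Gpc4, Gpc5 and Hs6st2 carried more signal in the dLGN than in VB. The others, among them Gpc1, Gpc3, Sdc2 and Hs6st1, did not pass without the gap. Gpc4, a glypican, gave 7.70, 7.59 and 7.77 in VB against 9.67, 10.02, 8.95 and 9.53 in dLGN (-1.86 ± 0.21, adjusted p = 1.31e-05). Gpc5, a related glypican, gave 7.95, 7.89 and 8.11 in VB against 9.97, 9.35, 8.85 and 9.43 in dLGN (-1.41 ± 0.19, adjusted p = 0.000114). With Hs6st2, 2 core proteins and a modifying enzyme were lower in every VB array. Reln, a secreted matrix protein, was lower by 1.33 on the log2 scale (adjusted p = 0.027, and 0.143 in the gap fit). The chondroitin sulfate carriers Vcan (1.58 ± 0.41) and Ptprz1 (1.33 ± 0.32) were higher in VB, and neither passed in the gap fit (adjusted p = 0.365 and 0.255). Of 30 matrix genes 3 were higher and 4 lower (23.3%), and 0 and 5 in the gap fit.

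In the Wnt list 0 of 35 members were higher and 3 lower in VB (8.57%, near the 8.42% of all genes), and the same 3 passed in the gap fit and without each array in turn. Nkd1, an intracellular inhibitor that Wnt signalling induces, gave 8.77, 9.15 and 8.85 in VB against 10.44, 10.96, 10.53 and 10.77 in dLGN (-1.75 ± 0.15, adjusted p = 4.31e-07). Wif1, a secreted Wnt inhibitor, gave 4.93, 5.38 and 5.02 in VB against 8.23, 7.55, 7.25 and 6.40 in dLGN (-2.24 ± 0.32, adjusted p = 0.000185). Fzd8, a Wnt receptor, was lower by 1.49 on the log2 scale (SE 0.23, adjusted p = 0.000432). Ligands of the list did not pass. Wif1 is also in the list of habenula markers, of which 1 of 10 was higher and 1 lower, and 0 and 2 in the gap fit.

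Sodium, calcium and HCN channel genes that passed were lower in VB, while potassium channel genes went both ways. Of 34 sodium, calcium and HCN channel genes, 0 were higher and 6 lower (17.6%, against 8.42% of all genes). Cacng2 (stargazin), which brings AMPA receptors to synapses, gave 8.07, 8.26 and 8.01 in VB against 9.44, 9.57, 9.16 and 9.43 in dLGN (-1.29 ± 0.16, adjusted p = 4.2e-05). Its relative Cacng8 gave 7.0, 7.01 and 7.13 in VB against 8.20, 8.39, 7.79 and 8.24 in dLGN (-1.11 ± 0.13, adjusted p = 3.48e-05). Both passed in the gap fit. The voltage-gated subunits Scn9a, Cacna1c, Cacna1e and Cacna2d2 differed by -0.96, -0.69, -0.52 and -0.80 and did not pass there (adjusted p from 0.106 to 0.481). Of 49 potassium channel genes 4 were higher and 3 lower (14.3%), and 2 and 2 in the gap fit. Kcnc2, a fast delayed rectifier, gave 6.78, 6.79 and 6.41 in VB against 8.45, 7.46, 8.19 and 7.74 in dLGN (-1.30 ± 0.18, adjusted p = 0.000128). Kcnab1, an accessory subunit, gave 8.67, 8.40 and 8.71 in VB against 7.38, 6.28, 7.07 and 7.10 in dLGN (1.64 ± 0.27, adjusted p = 0.000718). Of 21 glutamate receptor genes 2 were higher and 4 lower, and none of these 6 passed in the gap fit, where Grm8 was lower (adjusted p = 0.0004). Grin2d, an NMDA receptor subunit of young neurons, gave 7.91, 7.73 and 7.66 in VB against 8.63, 8.92, 8.90 and 8.96 in dLGN (-1.09 ± 0.21, adjusted p = 0.00341, and 0.0669 in the gap fit).

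Activity-regulated genes gave 4 of 22 members higher and 0 lower in VB (18.2%, against 8.42% of all genes). Egr2, an immediate early factor, gave 6.68, 6.98 and 6.32 in VB against 5.12, 5.09, 5.52 and 5.40 in dLGN (1.38 ± 0.32, adjusted p = 0.0131, and 0.242 in the gap fit). Fosl2 (0.52 ± 0.13) and Ier2 (0.70 ± 0.19) likewise lost the call in the gap fit (adjusted p = 0.158 and 0.493), which left Bdnf.

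**Figure D3:**
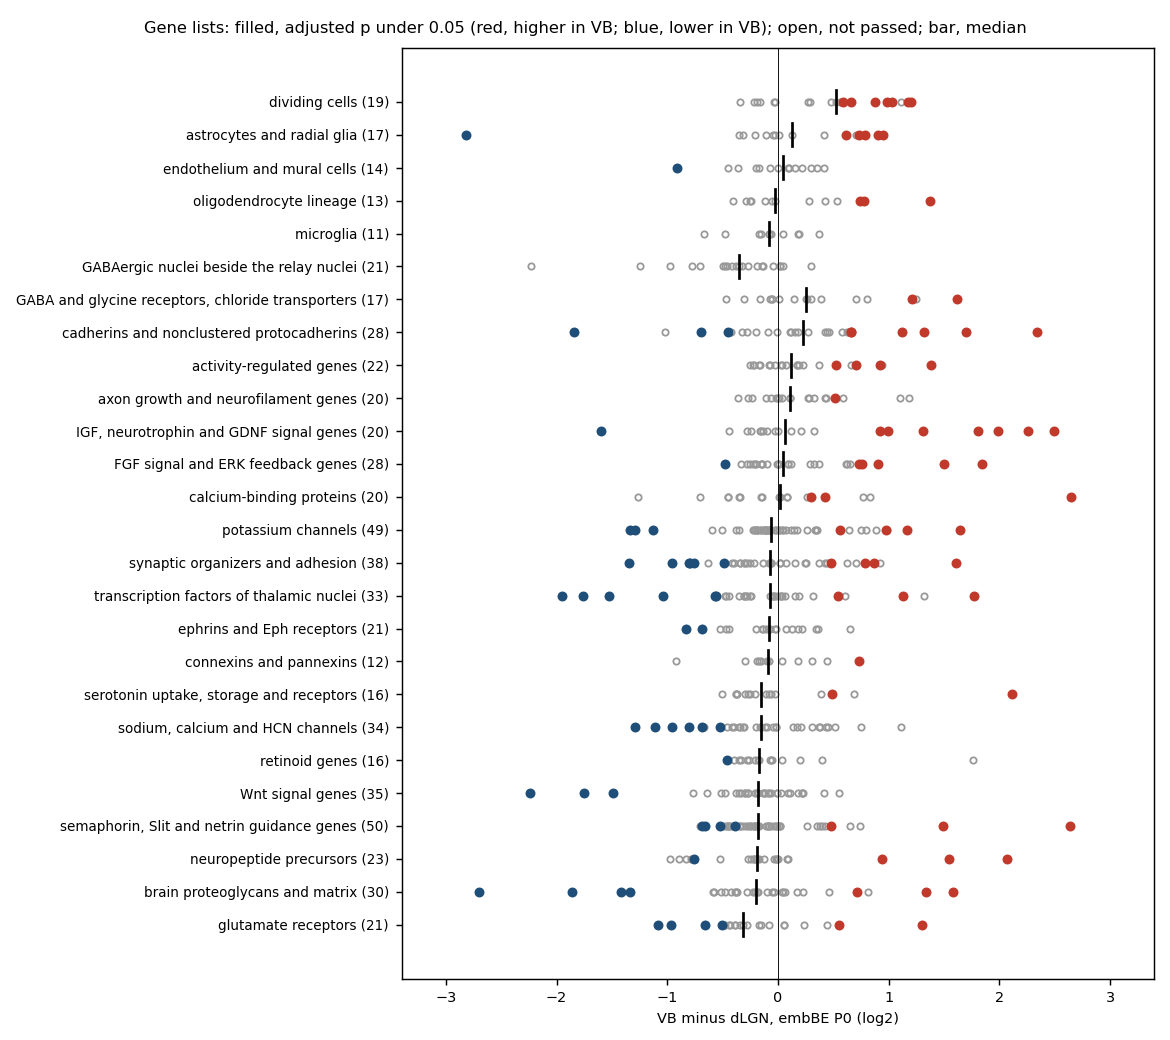
VB minus dLGN (log2 units) in embBE at P0 of each measured member of 20 pathway lists (lower block) and 6 cell type marker lists (upper block), number of members in brackets. Filled points passed an adjusted p of 0.05 (red higher in VB, blue lower), open points did not, and a bar marks each median; IGF, neurotrophin and GDNF genes had 7 red and 1 blue point of 20, and Wnt genes 0 and 3 of 35.

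Of 19 markers of dividing cells 7 were higher and 0 lower in VB, with a median difference of 0.52 in embBE and of -0.14 in controls. Nusap1, a spindle protein, gave 7.88, 8.31 and 8.31 in VB against 6.97, 6.61, 7.40 and 7.02 in dLGN (1.17 ± 0.23, adjusted p = 0.00446, and 0.0907 in the gap fit). The mean signal of the whole list was 7.69 to 7.90 in VB and 7.31 to 7.39 in dLGN. In the gap fit 0 of the 19 passed at the adjusted threshold and the median was 0.26. Without dLGN arrays 35_3 and 39_3 0 passed as well, on fewer arrays, and the median was as large as before, 0.52.

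Of 17 astrocyte and radial glia markers 5 were higher and 1 lower (35.3%, against 8.42% of all genes), and 2 and 1 in the gap fit. Aqp4, the water channel of astrocyte endfeet, was the exception, with 6.71, 6.81 and 7.14 in VB against 9.77, 9.32, 9.89 and 9.84 in dLGN (-2.82 ± 0.35, adjusted p = 3.82e-05). With the mean of its probe sets the Aqp4 difference was smaller, at -1.35. Slc1a3, a glial glutamate transporter, gave 9.57, 9.59 and 9.45 in VB against 9.0, 8.81, 8.61 and 9.27 in dLGN (0.62 ± 0.17, adjusted p = 0.0285). Gja1, the connexin of astrocytes, was higher in VB by 0.73 ± 0.18 (adjusted p = 0.0176). Slc1a3 and Gja1 passed in the gap fit, and each lost the call without some single arrays (adjusted p up to 0.111 and 0.103). Of 13 oligodendrocyte lineage genes 3 were higher and 0 lower (23.1%), and 0 and 0 in the gap fit. The list's median difference was -0.03, and 6 of the 13 were above 0, so the list as a whole was not shifted towards VB. Among the 3 that passed was Olig1, at 12.40, 12.49 and 12.45 in VB against 11.22, 10.52, 11.45 and 11.11 in dLGN (1.37 ± 0.28, adjusted p = 0.00503, and 0.0775 in the gap fit). Mbp and Pdgfra each passed without only 1 of the 7 arrays.

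The same comparison in control mice, on 5 arrays that the embBE comparison does not use, was read in both directions. In controls 293 genes (1.61%) passed, 269 (1.48%) of them at least 1.5-fold, and 650 (3.57%) were at the study's threshold. Of these 269, 266 (98.9%) had the same sign in embBE and 209 (77.7%) also passed there in that direction, 80 of the 99 higher in VB and 129 of the 170 lower, read against 8.42% of all genes. Fitted separately, so that the 2 conditions share no estimate of the spread, the controls gave 79 genes, of which 62 (78.5%) passed in embBE. In the gap fit the controls gave 531 and embBE 222 of these (41.8%). Read the other way, 935 of the 984 embBE genes had the same sign in controls and 189 (19.2%) passed there. The median of the 551 genes higher in VB was 0.89 in embBE, where they were chosen, and 0.38 in controls, and that of the 433 lower was -0.79 in embBE and -0.52 in controls. Of the 240 that also passed in the gap fit, 149 (62.1%) passed in controls, and of the other 744, 40 (5.38%). The control arrays also helped to set the slope of the gap fit that chose the 240, so this split is not an independent reading. The control dLGN had 2 arrays, and the part of that number in these counts was not tested.

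Some of the named genes had like differences in both conditions, and others, given further below, had larger or smaller ones in embBE. Plxna2 differed by 2.64 in embBE and by 2.54 in controls, and Igf1 by 2.26 and 2.13. Neurog2 differed by -3.18 in embBE and -2.68 in controls, Hs6st2 by -2.71 and -2.85 and Fgd5 by -2.24 and -2.01. Rorb differed by 1.77 in embBE, where its arrays gave 8.76 to 8.87 in VB against 6.01 to 7.58 in dLGN. In controls it differed by 1.65, with 8.65, 8.27 and 8.20 in VB against 6.90 and 6.54 in dLGN. For these 6 genes the difference between the conditions was 0.5 log2 units or less, with an unadjusted p of 0.13 or more in limma.

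**Figure D4:**
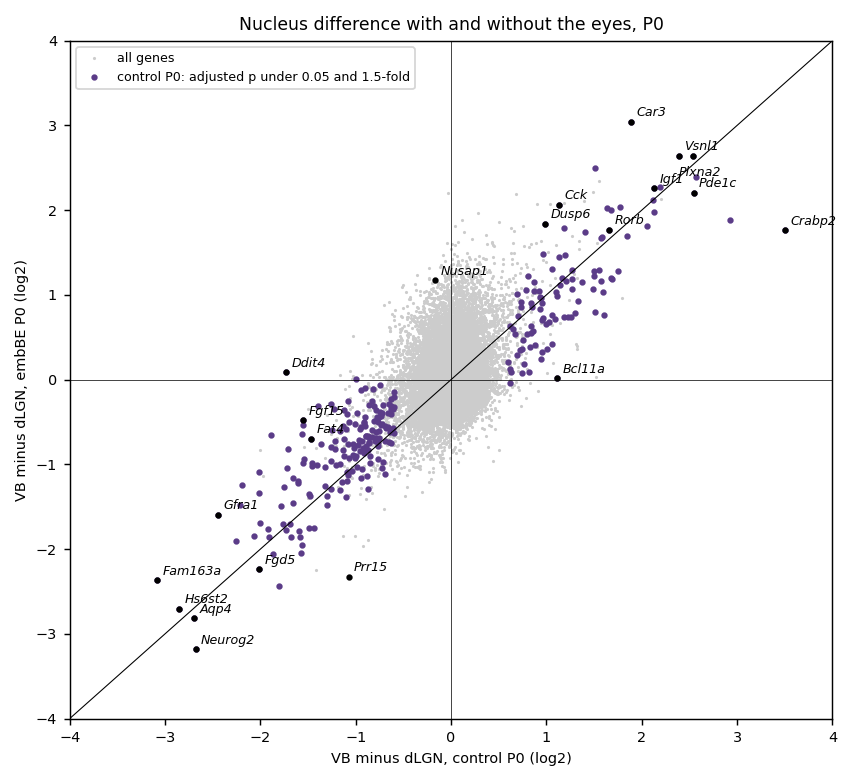
VB minus dLGN at P0 in control (x) and embBE (y) mice for 18194 genes, both in log2 units, with the line of equality; purple, the 269 genes called in controls, of which 266 have the same sign in embBE. Named genes are in black: Neurog2 and Plxna2 lie near the line, and Fgf15, Ddit4 and Bcl11a nearer to 0 in embBE.

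Whether a nucleus difference depended on the eyes was tested as the embBE minus control difference of VB minus dLGN. In limma 0 of 18194 genes passed the adjusted threshold, and 1165 (6.4%) had an unadjusted p under 0.05. At the study's threshold 496 (2.73%) were counted, 304 positive and 192 negative, and 138 in the gap fit. Without 1 array that count ran from 148, without VB control 35_1, to 2274, without dLGN embBE 39_4. The values that follow are therefore descriptions of single genes, none of which passed the adjusted threshold (the lowest adjusted p was 0.535). The actin gap split the nuclei in embBE and overlapped in controls, and the differences between conditions below are from the fit without it. Of the 8 largest named each way, 8 no longer met the study's threshold in the gap fit and 8 did.

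The smallest unadjusted p of the genes named here was that of Fgf15. It differed by -0.48 in embBE and by -1.55 in controls, where dLGN gave 6.85 and 6.52 and VB 5.04, 5.31 and 5.06 (difference between conditions 1.07, unadjusted p = 0.00016). The dLGN thus carried less Fgf15 signal without the eyes, 5.36 to 5.63, than with them. Spred2 differed by 0.91 in embBE and by -0.25 in controls (1.16, unadjusted p = 0.00108), with 8.17, 7.14, 8.10 and 8.04 in embBE dLGN against 8.74 and 8.90 in control dLGN. Ddit4, a stress-induced inhibitor of mTOR, differed by 0.09 in embBE and by -1.73 in controls (1.82, unadjusted p = 0.0032), with 9.19, 9.11, 10.72 and 9.74 in embBE dLGN against 10.98 and 10.86 in control dLGN. Bcl11a, a zinc finger factor of neurons, differed by 0.01 in embBE and 1.11 in controls (-1.10, unadjusted p = 0.0021). Its 4 embBE dLGN arrays, at 10.80 to 11.57, lay above the 2 control dLGN arrays, at 10.53 and 10.34. Crabp2, a retinoic acid carrier, differed by 1.77 ± 0.55 in embBE (adjusted p = 0.0507) and by 3.51 in controls (adjusted p = 0.00591). Its dLGN signal was 9.10, 6.61, 9.45 and 9.05 in embBE against 7.53 and 5.87 in controls, and its difference between conditions was -1.74 (unadjusted p = 0.055).

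Other differences were larger in embBE in the fit without the gap. Car3 differed by 3.05 in embBE and 1.89 in controls, Igfbp2 by 2.50 and 1.51, Cck by 2.07 and 1.14, and Dusp6 by 1.84 and 0.98. The differences between conditions were 1.15, 0.99, 0.93 and 0.86, with unadjusted p = 0.01, 0.021, 0.0075 and 0.0069. For each of these the dLGN signal was lower in embBE than in both control arrays, apart from 1 Dusp6 array, 39_4 at 7.68, that fell between the control values of 7.55 and 7.85. Prr15, a small protein of unknown role, differed by -2.33 in embBE and -1.07 in controls (unadjusted p = 0.031). Among the largest condition differences at the study's threshold were also Nefm, a neurofilament subunit (1.10 in embBE, -0.51 in controls), Pcdh7 (1.12 and -0.50) and Trpm3 (0.51 and -1.03). In all 3 the control VB array 35_1, whose actin gap was 4.29, was the lowest of the VB arrays, and in the gap fit the embBE differences were 0.17, 0.39 and -0.46.

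At P4, on 6 other arrays, 962 of the 984 genes had the same sign in embBE and 457 (46.4%) passed in that direction, read against 9.32% of all genes. The actin gap split the nuclei there too, at 1.98, 2.05 and 1.98 in VB and 3.33, 3.87 and 3.94 in dLGN. In the gap fit 146 of the 295 genes called at P0 passed at P4 (49.5%). Across the 18194 genes, which are not independent, the P0 difference in embBE correlated with that at P4 at r = 0.821. With the difference in P0 controls, where the gap overlapped, it correlated at 0.406, and at 0.708 in the gap fit. That fit takes the same slope of a gene out of both differences, which can by itself make them more alike. The value of 0.708 is therefore not an independent reading, and the part of the gap in the lower value was not tested. Plxna2 differed by 2.63 at P4 and 2.64 at P0, Fgd5 by -2.35 and -2.24, and Rorb by 1.72 and 1.77. Neurog2 differed by -1.79 at P4 and -3.18 at P0, with 5.85, 5.93 and 5.51 in VB against 7.42, 7.58 and 7.68 in dLGN at P4 (difference between ages not passed, adjusted p = 0.126).

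A change with age of the difference itself, a contrast added after the data were seen, passed in 10 genes (0.055%). Aqp4 differed by 0.23 at P4 and -2.82 at P0 (change 3.05, adjusted p = 0.025), as the VB signal was 10.55 to 11.16 at P4 and 6.71 to 7.14 at P0, whereas dLGN was 10.01 to 11.14 at P4 and 9.32 to 9.89 at P0. Car3 differed by 0.62 at P4 and 3.05 at P0 (change -2.42, adjusted p = 0.016). Fosl2, a partner of Jun in the AP-1 factor, differed by 1.56 at P4 and 0.52 at P0 (change 1.03, adjusted p = 0.043). No gene passed without VB 35_3 at P0 or VB 36_2 at P4, so none of these calls held in every fit.

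**Figure D5:**
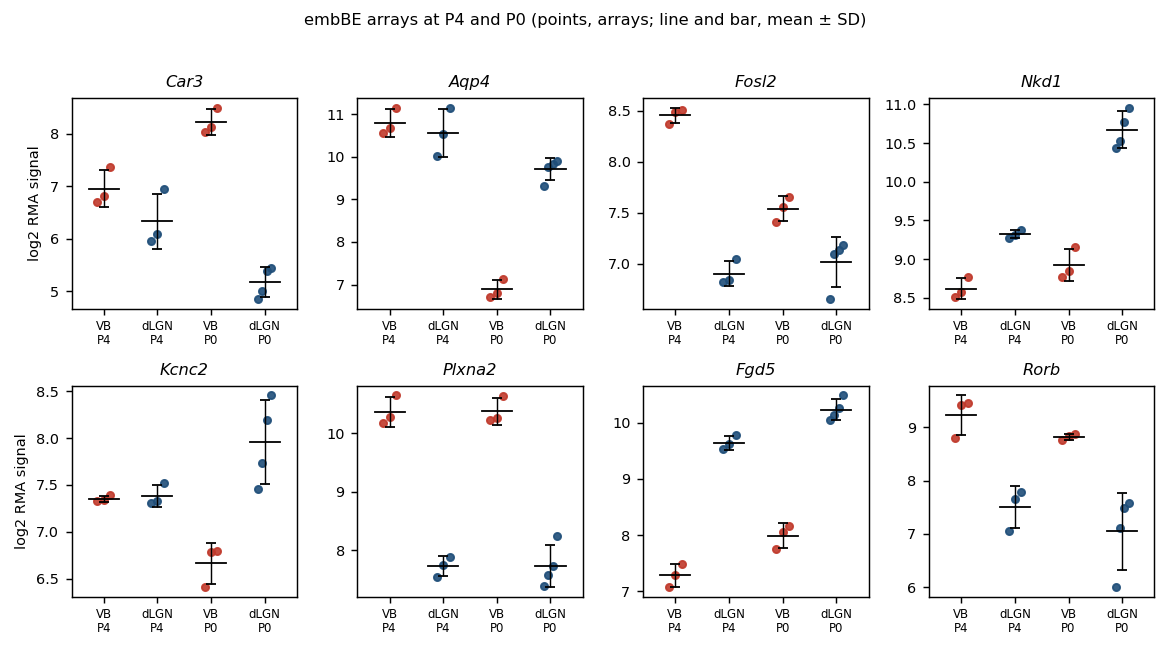
Log2 RMA signal of 8 genes in each embBE array of VB and dLGN at P4 and at P0, with the mean as a line and the SD as a bar. The nuclei overlap at P4 and not at P0 for Aqp4, while Plxna2, Fgd5 and Rorb stay apart at both ages.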

How the data were processed

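The deposited values are log2 signals that the authors made by RMA in Partek from 24 Affymetrix Mouse430_2 arrays, 45101 probe sets in all, and hold no detection calls. The number of arrays limits the precision. Probe sets with 1 gene symbol (34958, of which 34754 symbols were updated by Entrez number) were reduced to 18194 genes by the highest mean over the 24 arrays, and the 64 control probe sets, 932 with several symbols and 9211 with no listed gene were left out. Group means of the 8 groups were fitted with limma 3.58.1 (R 4.3.3) without a block, with Benjamini-Hochberg adjustment over all genes and a threshold of 0.05. Same-numbered VB and dLGN embBE arrays correlated at 0.129, -0.093 and -0.139 in their deviations, and the numbers were not taken as pairs. So few arrays cannot exclude a pairing. Every label that occurs for both nuclei, in either condition and at either age, had the same class of Xist and Eif2s3y signal in both. The labels may thus mark shared animals or pools, and the main fit, with 1532 genes, does not take this into account. With the 3 label pairs as a block 196 genes passed. Tables were made with pandas 2.3.3 and figures with matplotlib 3.10.9 (Python 3.11.15). Named genes were the 15 largest non-overlapping differences each way at 1.5-fold, up to 6 passing members of each list, the 8 largest condition differences each way and a fixed few. Members and lists were chosen with earlier results of these data known. Outside this rule, Tcf7l2, Gad1, Htr4, Htr7 and Grm8 were picked with their values already seen. The fits with array measures as covariates, and the change with age, were added after the data were seen. The fit was tested on simulated data. Promoters are those of RefSeq, GRCm38.p6. Sp9 was not analysed here.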

Additional observations from a re-analysis of the deposited data

Results flagged for a closer look

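In the 4 dLGN embBE arrays at P0, 9 of 141 values tested had 1 array far from the other 3 (Dixon's test at the 95% level, under which chance alone marks some groups). Array 39_3 was lowest for Crabp2 at 6.61 (others 9.05 to 9.45), Fgf12 at 7.88 (8.73 to 8.80), Fgf15 at 5.36 (5.61 to 5.63), Pcdh11x at 7.98 (9.09 to 9.32) and Spred2 at 7.14 (8.04 to 8.17), and highest for Grik1 at 10.36 (10.16 to 10.19). Array 39_2 was lowest for Fosl2 at 6.65 (7.09 to 7.18), 39_4 for Gng8 at 5.45 (5.92 to 5.98) and 35_3 for Unc5c at 9.92 (10.18 to 10.20). The difference between P4 and P0 of VB minus dLGN in embBE passed in limma for Aqp4 (3.05), Car3 (-2.42) and Fosl2 (1.03).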

How the results depend on the processing

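With an adjusted p under 0.05, 1532 genes differed between VB and dLGN in embBE at P0, and the count was 823 on these 7 arrays alone, 809 on the 12 P0 arrays, 351 with the first label number as a block, 390 with label 39 only, 5421 with array weights, 67 by the methods' t-test after Benjamini-Hochberg adjustment (1445 at the study's threshold), 351 with the actin gap and 386 without dLGN embBE 35_3 and 39_3. With the label number as a replicate block (3 pairs) it was 196, and same-numbered arrays did not all correlate best with each other. Leaving out 1 array gave 518 to 4635. The cause of these changes was not tested. At the study's threshold (2152) the count was 1320 with label 39 only, 1275 with the mean of a gene's probe sets, 3685 over every probe set, 601 with the gap, 662 with the array SD and 785 without the 2 dLGN arrays, and 1289 to 3268 without 1 array. After centring on the median 1825 were higher and 400 lower, against 1587 and 565. For the difference between conditions the adjusted count was 0 to 1 without 1 array. At the study's threshold (496) it was 290 with mean probe sets, 966 over every probe set, 1731 with array weights, 138 with the gap and 90 with the array SD, and 148 to 2274 without 1 array. Control genes that also passed in embBE (209 of 269) were 115 of 133 on the 12 arrays, 62 of 79 in separate fits, 374 of 650 with controls at the study's threshold, and 78 of 84 (without dLGN control 39_5) to 255 of 296 without 1 array. Genes that also passed at P4 (457 of 984) were 146 of 295 with the gap and 249 of 984 to 908 of 2821 without 1 array. The change with age (10 genes) was 6 with mean probe sets, 90 with array weights, 19 with the gap, 224 with the array SD and 5 with Xist, and 0 to 9 without 1 array. Gbx2 turned to 0.027 under the replicate block, 0.030 after cyclic loess and 0.038 after centring, and ran from -0.53 to 0.32 without 1 array. Sox14 turned to 0.10 with the gap, 0.051 with the array SD and 0.022 without the 2 dLGN arrays. Of the named genes 65 were weaker with the gap.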

Other observations

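Each sample pooled pups, yet Xist and the Y-linked Eif2s3y split all 24 arrays into 2 classes. Xist was 10.02 to 11.53 and Eif2s3y 3.46 to 3.86 in 14 arrays, and Xist was 6.82 to 7.66 and Eif2s3y 7.80 to 9.32 in the other 10. Among the embBE P0 arrays 4 were of the first class and 3 of the second, and VB and dLGN arrays of the same label were of the same class.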
